A study of Homo sapiens with 8 samples.

Results

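The MYC and MAX network is a set of transcription factors that share a dimerization domain and compete for one another and for DNA. Its members here were MYC, MYCN, MAX, MXD1, MXD3, MXD4, MXI1, MNT, MGA and MLX, 10 of the 20453 genes counted in every library. They were chosen by name, but with earlier results of these data known. MYC drives growth programmes as a heterodimer with MAX on the E-box CACGTG, and MYCN is its close relative. The MXD proteins, MXI1 (also called MXD2) and MNT pair with MAX on the same sites and recruit SIN3 and histone deacetylases, which repress transcription. MGA is a very large MAX partner that also carries a T-box domain and scaffolds a Polycomb complex, and MLX is a MAX-like partner of MNT, MXD1, MXD4 and the glucose-sensing MondoA proteins. MYC is commonly high in acute myeloid leukaemia, where it sustains proliferation and blocks differentiation.

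Transcript levels and ribosome occupancy were measured in cells transduced with mutant DNMT3A (mut) and in cells transduced with wild-type DNMT3A (wt). Both carried an introduced DNMT3A, a de novo DNA methyltransferase, and the labels name no deletion of the cells' own gene, no untransduced control and no promoter for the introduced copy. The labels give the line as THP-1, which derives from a human acute monocytic leukaemia, and the cell type as monocytic. RNA-seq gave mRNA counts, and ribosome profiling (Ribo-seq) gave counts of footprints, the short mRNA stretches that ribosomes shield from nuclease, and each genotype had 2 libraries per assay, 8 in all.

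Total counts lay between 3415999 and 4523475 in the mRNA libraries. They were 944824 and 603360 in the mut footprint libraries, against 1611724 and 1988513 in the wt footprint libraries, so mut footprints were the least precise values. Levels are given as CPM, counts scaled to a common library size, on which 3 counts, the floor for detection, made 0.663 to 0.878 in mRNA and 1.51 to 4.97 in footprints. DNMT3A mRNA was at 240.9 and 244.3 scaled CPM in mut libraries, against 291.2 and 294.4 in wt libraries (log2 fold change -0.27, SE 0.053, adjusted p = 4.3e-06, edgeR). Reads of the introduced and of the endogenous DNMT3A were counted together, so this does not check which allele was carried. Of 15 monocyte and macrophage markers, 7 had no mRNA count in any library (CSF1R, S100A8, S100A9, FCN1, CD163, MPO and IRF8), and 5 reached 10 CPM in every mRNA library, whereas all 14 markers of erythroid cells and megakaryocytes had at least 10 CPM in each mRNA library. Several defining monocyte markers were thus absent, and erythroid markers were present, in cells labelled monocytic.

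Stretches upstream of the gene starts of MXD4, MNT, MLX and MGA are shown with the CACGTG site that the network's dimers bind marked where present. Of the members read, MXD4, MNT and MLX were those whose stretches held this site. MXD4, MNT and MGA are, beside MYC, the MAX partners whose mRNA was called between the genotypes. No MYC sequence is shown. Each is the 250 bases before a start annotated by RefSeq (GRCh38.p14), written 5′ to 3′ on the gene's strand, with CACGTG in capitals. They lie at chr4:2262110-2262359 (minus strand, MXD4), chr17:2401061-2401310 (minus strand, MNT), chr17:42566850-42567099 (plus strand, MLX) and chr15:41620974-41621223 (plus strand, MGA).
MXD4: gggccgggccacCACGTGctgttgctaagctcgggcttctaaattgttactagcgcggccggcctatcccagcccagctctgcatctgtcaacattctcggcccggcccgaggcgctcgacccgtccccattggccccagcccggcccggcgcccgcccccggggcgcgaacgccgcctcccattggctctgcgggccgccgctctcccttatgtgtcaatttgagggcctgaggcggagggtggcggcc
MNT: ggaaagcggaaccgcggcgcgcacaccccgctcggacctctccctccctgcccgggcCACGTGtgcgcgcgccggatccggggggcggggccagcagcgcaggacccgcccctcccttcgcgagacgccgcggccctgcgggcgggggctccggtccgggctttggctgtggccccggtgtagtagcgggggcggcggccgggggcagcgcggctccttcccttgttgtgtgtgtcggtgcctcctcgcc
MLX: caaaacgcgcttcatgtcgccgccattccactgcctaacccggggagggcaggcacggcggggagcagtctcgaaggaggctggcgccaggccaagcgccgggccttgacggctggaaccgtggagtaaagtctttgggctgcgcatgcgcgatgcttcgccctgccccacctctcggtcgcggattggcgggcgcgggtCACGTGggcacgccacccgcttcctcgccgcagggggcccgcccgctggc
MGA: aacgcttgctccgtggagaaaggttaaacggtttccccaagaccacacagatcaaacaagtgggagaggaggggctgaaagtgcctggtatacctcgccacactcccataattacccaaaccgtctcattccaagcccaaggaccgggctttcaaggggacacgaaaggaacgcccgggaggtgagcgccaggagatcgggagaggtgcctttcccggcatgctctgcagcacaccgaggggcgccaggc
CACGTG reads the same on both strands, and it began 238 bases before the start of MXD4, 193 bases before that of MNT and 50 bases before that of MLX. The MGA stretch did not hold these letters, nor did the other 2 annotated MGA starts. Of 14 such stretches read for 9 members, 3 held CACGTG, against 2228 of all 35116 stretches of this length (6.34%). A match is a description of the letters only, and no match says nothing about binding elsewhere.

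Between the genotypes, MYC was lower and MGA higher in mut cells in both assays, and MXD4 was lower in both. MNT was called lower in mRNA, and MAX and MLX passed neither test. Some of these calls depended on the setting. Those of MXD4 held in 1 of 12 alternatives in mRNA and in 7 of 11 in footprints. The MNT mRNA call held in 4 of 11 and the MGA footprint call in 7 of 13. Of the 10 members, 9 passed the filter on low counts and were tested. MYCN had 0 counts in all 8 libraries, which allows at most 0.663 to 0.878 CPM in mRNA and 1.51 to 4.97 CPM in footprints. In mRNA, 4 of the 9 were called at an adjusted p under 0.05, 1 higher and 3 lower, where 37.7% of all 10756 genes tested were called (18.9% higher and 18.9% lower). In footprints 3 of 9 were called, 1 higher and 2 lower, where 21.2% of 9181 genes were (10.3% higher and 11% lower). The members' shares, 44.4% and 33.3% of 9 genes, lay near these backgrounds. The members' median log2 fold change was -0.23 in mRNA and -0.35 in footprints, beside -0.0022 and 0.0055 for all genes.

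**Figure D1:**
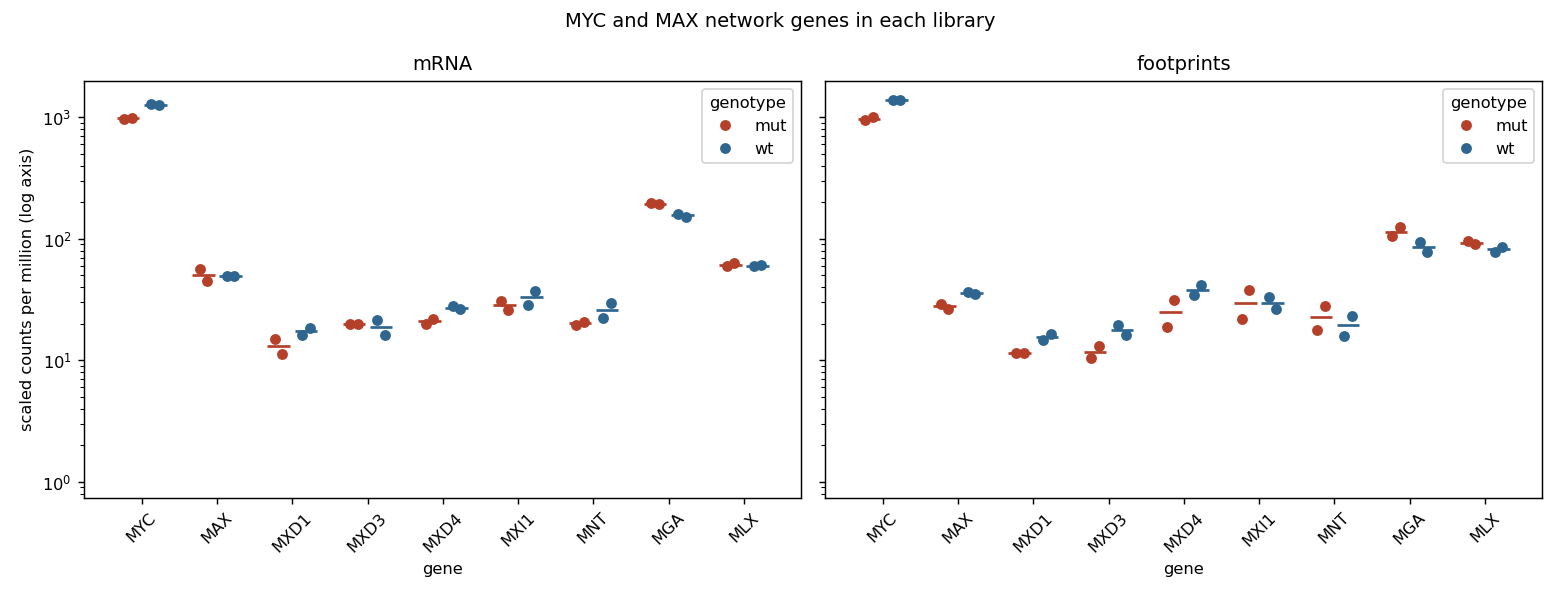
Scaled CPM of each member in each library, mut (red) left of wt (blue), mRNA and footprints side by side, on a log axis; each point is 1 library and the short bar their mean. MYC points of mut lie below those of wt in both assays and MGA points of mut lie above those of wt in both, while heights are not comparable between genes because values are not per length.

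MYC, the activator of the network (ENSG00000136997, chromosome 8, 127735434 to 127742951), had 976 and 982 scaled CPM of mRNA in mut libraries, against 1275 and 1265 in wt libraries. The raw counts behind these were 4338 and 3850 in mut, against 4312 and 5642 in wt. Both mut libraries lay below both wt libraries, and the gap was many times the difference within either pair. MYC mRNA fell by 0.38 on the log2 scale (log2 fold change -0.38, SE 0.037, 0.771-fold, adjusted p = 3.2e-21, edgeR's quasi-likelihood test). In these bulk samples fewer cells of a kind and less RNA per cell cannot be told apart.

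MYC footprints were 953.5 and 996.4 scaled CPM in mut libraries, against 1379 and 1386 in wt libraries, from 911 and 607 counts in mut and 2174 and 2680 counts in wt. The groups did not overlap, and the wt pair agreed more closely than the mut pair. The log2 fold change was -0.51 (SE 0.050, 0.7025-fold, adjusted p = 3.6e-15, edgeR). Footprints per MYC mRNA averaged 0.996 in mut and 1.09 in wt. The interaction of genotype and assay was -0.14 on the log2 scale (SE 0.062, 95% interval -0.26 to -0.02), with an unadjusted p of 0.026 and an adjusted p of 0.21 (edgeR), so the footprint difference was not called as exceeding the mRNA difference.

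The mRNA call of MYC was lost when a coefficient of variation of 10% between replicates was assumed (adjusted p = 0.114) and held in the other 12 of 13 alternatives, with log2 fold changes between -0.54 and -0.35. The footprint call held in 13 of 13 (highest adjusted p = 0.0336). Sums of some cell type markers moved with MYC. The summed mRNA of 14 erythroid and megakaryocyte markers was 2836 to 2877 scaled CPM in mut libraries, against 3290 to 3336 in wt libraries. Their summed footprints were 3869 to 3881 in mut, against 4260 to 4375 in wt. Of 5 epithelial markers 4 reached 10 CPM, with CDH1 at 0, and their sum was 913.1 to 917.1 in mut mRNA, against 1166 to 1203 in wt mRNA. In footprints that sum was 677.9 to 691.8 in mut, against 987.3 to 1053 in wt. The sum of the 15 monocyte and macrophage markers went the other way, at 407.4 to 437.6 in mut mRNA, against 390.1 to 400.6 in wt mRNA, and at 633.2 to 645.1 in mut footprints, against 542.5 to 586.3 in wt footprints. Sums of the 6 T and NK cell markers overlapped between the genotypes in both assays. A sum can be set by a few abundant markers, so it does not show that each marker moved. The part of these markers in the MYC result was not tested.

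Genes whose levels followed MYC most closely were named by the Pearson correlation of log2 CPM over the 8 libraries, among the 3068 genes that averaged 100 counts or more per library in both assays. CKB, a creatine kinase, came nearest (r = 0.9946), followed by KRT19, an epithelial keratin and 1 of the epithelial markers above (r = 0.9875), and TELO2, a co-chaperone of PIKK kinases (r = 0.9831). The points share libraries, depth, assay and genotype, so these are descriptions. These genes were picked for following MYC over both genotypes, so fold changes like those of MYC come with that choice. CKB and KRT19 each had a log2 fold change of -0.53 in mRNA and of -0.70 in footprints, and TELO2 had -0.40 and -0.57.

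MAX is a common partner with which MYC, the MXD proteins, MNT and MGA bind DNA (ENSG00000125952, chromosome 14, 65006101 to 65102695). Its mRNA was 56.0 and 45.1 scaled CPM in mut libraries, against 49.1 and 49.8 in wt libraries. The mut values lay on both sides of the wt values. The log2 fold change of MAX mRNA was 0.04 (SE 0.11, 95% interval -0.17 to 0.25, adjusted p = 0.80, edgeR). MAX footprints were 29.3 and 26.3 scaled CPM in mut, against 36.8 and 35.2 in wt. The counts behind these were 28 and 16 in mut and 58 and 68 in wt. Here the mut libraries lay below the wt libraries without passing the test (log2 fold change -0.35, SE 0.23, 95% interval -0.81 to 0.10, adjusted p = 0.29, edgeR). The annotated span of MAX overlaps FNTB and MAX-AS1. Shared exons were not looked up and the strand setting of the counting is not given. Whether reads of these genes entered the MAX counts cannot be told.

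**Figure D2:**
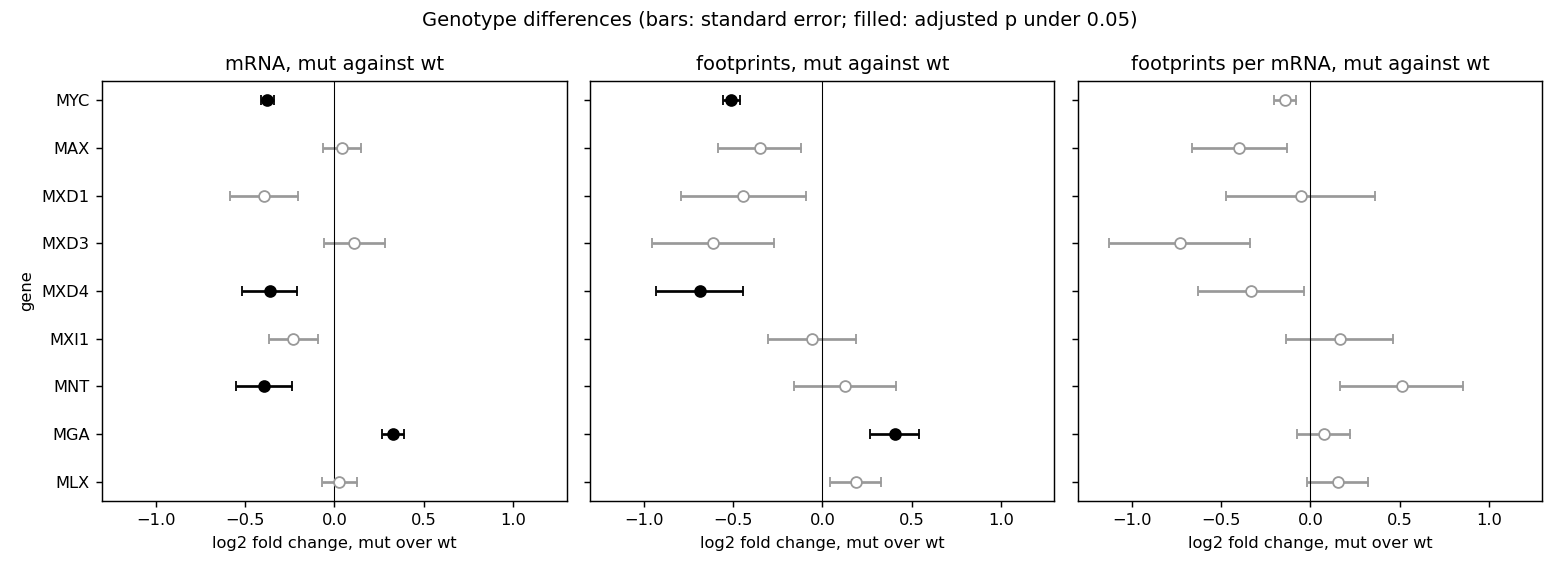
Log2 fold change of mut over wt for each tested member in 3 panels (mRNA; footprints; footprints per mRNA); bars are standard errors and filled points passed an adjusted p of 0.05. MYC (-0.38 and -0.51) and MXD4 lie left of 0 and MGA (0.33 and 0.41) right of it in the first panels, and no point is filled in the panel of footprints per mRNA.

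Among the repressors, MXD4 (ENSG00000123933, chromosome 4, 2247432 to 2262109), which is known to rise as cells leave the cycle, had 20.0 and 21.9 scaled CPM of mRNA in mut libraries, against 27.8 and 26.2 in wt libraries. Its footprints were 18.8 and 31.2 in mut, against 34.3 and 41.4 in wt, from 18 and 19 counts in mut and 54 and 80 counts in wt. The mut libraries were the lower ones in both assays. MXD4 fell by 0.36 on the log2 scale in mRNA (SE 0.15, adjusted p = 0.049) and by 0.69 in footprints (SE 0.24, adjusted p = 0.031, edgeR). The mRNA call was marginal: it held in 1 of 12 alternatives and was lost without each mRNA library in turn (log2 fold changes -0.42 to -0.29, adjusted p up to 0.26), while the footprint call held in 7 of 11. Without mut footprint replicate 1 the footprint log2 fold change was -0.29 (adjusted p = 0.645), without mut footprint replicate 2 it was -1.02, and without wt footprint replicate 2 the adjusted p was 0.23.

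MNT is the broadly expressed antagonist of MYC (ENSG00000070444, chromosome 17, 2384073 to 2401060). Its mRNA was 19.6 and 20.7 scaled CPM in mut libraries, against 22.5 and 29.4 in wt libraries. Its footprints were 17.8 and 27.9 in mut, against 15.9 and 23.3 in wt. The groups were apart in mRNA, with mut lower, and overlapped in footprints. MNT mRNA had a log2 fold change of -0.39 (SE 0.16, adjusted p = 0.035) and MNT footprints one of 0.12 (SE 0.29, adjusted p = 0.81). The difference between them did not pass the interaction test (0.51, SE 0.34, adjusted p = 0.46, edgeR). The mRNA call held in 4 of 11 alternatives. It was lost without wt mRNA replicate 2 (log2 fold change -0.16, adjusted p = 0.636), without mut mRNA replicate 1 (-0.35, adjusted p = 0.174) and without mut mRNA replicate 2 (-0.42, adjusted p = 0.0627).

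MXD1, a repressor induced in myeloid differentiation (ENSG00000059728), had 15.1 and 11.2 scaled CPM of mRNA in mut libraries, against 16.3 and 18.4 in wt libraries. MXD1 footprints were 11.5 in each mut library, against 14.6 and 16.6 in the wt libraries, from 11 and 7 counts in mut and 23 and 32 in wt. The mut libraries were lower in both assays, without a call (log2 fold change -0.40, SE 0.19, adjusted p = 0.09 in mRNA, and -0.44, SE 0.35, adjusted p = 0.39 in footprints, edgeR). MXD3, which is known to act in cycling cells (ENSG00000213347), had 19.8 and 19.9 scaled CPM of mRNA in mut, against 21.3 and 16.1 in wt. Its footprints were 10.5 and 13.1 in mut, against 19.7 and 16.0 in wt. The mRNA groups overlapped and the footprint groups did not. The annotated spans of the protein-coding genes PRELID1 and ASPRV1 overlap those of MXD3 and MXD1. Whether their reads entered the counts of these members cannot be told either. Neither MXD3 difference was called (log2 fold change 0.11, adjusted p = 0.65 in mRNA, and -0.61, SE 0.34, adjusted p = 0.20 in footprints, edgeR), nor was the interaction of -0.73 (SE 0.40, adjusted p = 0.34). MXI1 (ENSG00000119950) overlapped between the genotypes in both assays, with 31.0 and 25.8 scaled CPM of mRNA in mut, against 28.7 and 37.2 in wt, and with 22.0 and 37.8 scaled CPM of footprints in mut, against 33.0 and 26.4 in wt.

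Summed over MXD1, MXD3, MXD4, MXI1 and MNT, repressor mRNA was 105.5 and 99.45 scaled CPM in mut libraries, against 116.5 and 127.3 in wt libraries. Their summed footprints were 80.6 and 121.5 in mut, against 117.4 and 123.6 in wt. The mRNA sums were apart and the footprint sums overlapped. MYC counts per repressor count, a ratio within a library that needs no scaling, were 9.25 and 9.87 in mut mRNA, against 10.9 and 9.93 in wt mRNA. In footprints they were 11.8 and 8.20 in mut, against 11.75 and 11.2 in wt, and overlapped. MYC and these summed repressors were thus both lower in mut mRNA. Their ratio was slightly lower there, with 9.87 in mut beside 9.93 in wt as the closest values. MGA, another MAX partner, was left out of these sums and went the other way. Its mRNA was 195.5 and 193.0 scaled CPM in mut, against 161.1 and 150.0 in wt. The sums use values that are not per length.

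MGA (ENSG00000174197, chromosome 15, 41621224 to 41769940) was the member called higher in mut cells. Its mRNA was 195.5 and 193.0 scaled CPM in mut libraries, against 161.1 and 150.0 in wt libraries, a mean of 194.3 ± 1.72 in mut and of 155.6 ± 7.88 in wt (SD, n = 2 each). Its footprints were 104.7 and 124.8 in mut, against 93.9 and 77.6 in wt. Both mut libraries lay above both wt libraries in each assay. MGA mRNA rose by 0.33 on the log2 scale (SE 0.062, 1.25-fold, adjusted p = 2.4e-06) and MGA footprints by 0.41 (SE 0.14, adjusted p = 0.022, edgeR). The interaction was 0.07 (adjusted p = 0.86), so both assays differed by a like amount as far as this test resolves. The mRNA call held in 12 of 13 alternatives and was lost at an assumed coefficient of variation of 10% (adjusted p = 0.198), while the footprint call held in 7 of 13, with log2 fold changes of 0.26 to 0.55. It was lost without wt footprint replicate 2 (0.26, adjusted p = 0.287), without mut footprint replicate 1 (0.55, adjusted p = 0.127) and without mut footprint replicate 2 (0.30, adjusted p = 0.283).

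Ratios of counts within a library need no scaling between libraries and show relative change only. MYC counts per MGA count were 4.99 and 5.09 in mut mRNA, against 7.91 and 8.43 in wt mRNA. In footprints they were 9.11 and 7.99 in mut, against 14.7 and 17.9 in wt. The genotypes were apart in both assays. Per MAX count, MYC counts were 17.4 and 21.75 in mut mRNA, against 25.98 and 25.4 in wt mRNA, with the genotypes apart. In footprints MYC counts per MAX count were 32.5 and 37.9 in mut, against 37.5 and 39.4 in wt, and the genotypes overlapped. Per MLX count, MYC counts were 16.3 and 15.6 in mut mRNA, against 21.45 and 20.8 in wt mRNA, and 10.01 and 11.0 in mut footprints, against 17.8 and 16.1 in wt footprints, apart in both assays. These ratios use counts that are not per length, so only their difference between genotypes has a meaning.

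MLX (ENSG00000108788, chromosome 17, 42567100 to 42573203) had 59.8 and 63.0 scaled CPM of mRNA in mut libraries, against 59.4 and 60.8 in wt libraries. Its footprints were 95.2 and 90.3 in mut, against 77.4 and 85.9 in wt. The mRNA groups overlapped, and the mut footprints lay above the wt footprints. Neither was called, with a log2 fold change of 0.03 in mRNA (SE 0.098, 95% interval -0.16 to 0.22, adjusted p = 0.86) and of 0.19 in footprints (SE 0.14, 95% interval -0.09 to 0.46, adjusted p = 0.38, edgeR). With any trend of the fold changes with gene density removed, MLX mRNA was called higher (0.25, adjusted p = 0.044) and MXI1 mRNA was called lower (-0.38). MLX has 41 annotated genes within 500000 bases on each side, MGA 20 and MYC 1. The annotated span of PSMC3IP overlaps that of MLX, and whether they share reads cannot be told for want of a stated strand setting.

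**Figure D3:**
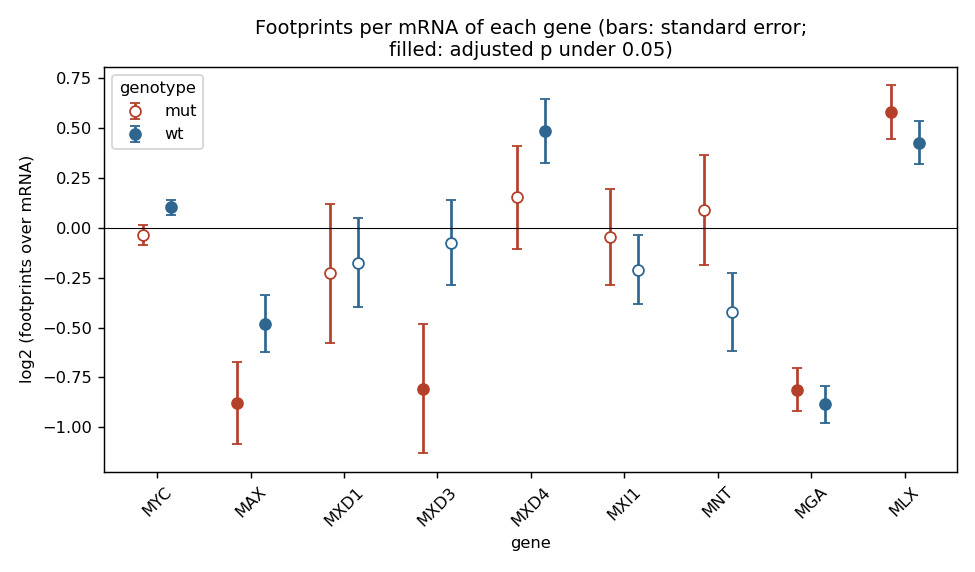
Log2 ratio of footprints to mRNA for each tested member, mut (red) left of wt (blue). The median of all genes lay close to 0, at -0.0073 in mut and 0.0198 in wt. Bars are standard errors and filled points passed an adjusted p of 0.05. MAX and MGA lie below 0 and MLX above 0 in both genotypes.

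Within each genotype, members differed in how many footprints they carried per mRNA relative to the typical gene. Scaling factors were set within each assay, so 0 follows the total counts of the genes kept. The median of all genes was -0.0073 in mut and 0.0198 in wt. MGA carried fewer, with log2 ratios of -0.81 in mut (SE 0.11, adjusted p = 8.7e-10) and -0.89 in wt (SE 0.091, adjusted p = 5.3e-14, edgeR). MAX carried fewer too, at -0.88 in mut (SE 0.21, adjusted p = 2.0e-04) and -0.48 in wt (SE 0.14, adjusted p = 0.0024). MLX carried more than the typical gene, at 0.58 in mut (SE 0.14, adjusted p = 1.8e-04) and 0.43 in wt (SE 0.11, adjusted p = 3.3e-04). These 3 kept their calls in every alternative run for them.

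MXD1, MXI1 and MNT were called in neither genotype, and MXD3, MXD4 and MYC were called in 1 genotype each, with no call of the difference between genotypes. MXD3 was at -0.81 in mut (SE 0.32, adjusted p = 0.027) and -0.08 in wt (adjusted p = 0.77). MXD4 was at 0.15 in mut (adjusted p = 0.63) and 0.48 in wt (adjusted p = 0.0057). MYC stood near the typical gene, at -0.04 in mut (adjusted p = 0.55) and 0.10 in wt (adjusted p = 0.012, edgeR). The call of MXD3 in mut was lost without mut footprint replicate 1 (-0.63, adjusted p = 0.308) or replicate 2 (-0.95, adjusted p = 0.0522), that of MXD4 in wt without wt footprint replicate 2 (0.34, adjusted p = 0.189), and that of MYC in wt without either wt mRNA library (0.11 and 0.09). In all, 4 of 9 members were called in mut, 1 higher and 3 lower, where 59.9% of 9166 genes were (30% higher and 29.9% lower). In wt 5 of 9 were called, 3 higher and 2 lower, where 70.1% of genes were (35.6% higher and 34.4% lower). Between the genotypes, 0 of 9 members were called in footprints per mRNA by edgeR, where 4.11% of 9166 genes were (1.65% higher and 2.47% lower). Without the adjustment, MYC had a p under 0.05 there (0.026). Whether exons or coding sequence were counted is not given, and the ratio of each gene relative to others depends on it.

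Other genes of the pathway were described by lists of known roles, and each count is to be read against the share of all genes called, 18.9% higher and 18.9% lower in mRNA and 10.3% higher and 11% lower in footprints. No difference between lists, or of a list from the other genes, was tested. Of 8 relatives and binding partners of MYC, 7 were tested in mRNA, where 0 rose and 3 fell (median log2 fold change -0.23; 37.7% of all genes called), and of 8 tested in footprints 0 rose and 1 fell (median -0.29; 21.2% called). MLXIP (MondoA), the glucose-sensing partner of MLX, had 237.1 and 231.5 scaled CPM of mRNA in mut libraries, against 290.0 and 291.9 in wt libraries, and fell by 0.31 (adjusted p = 1.3e-07) in mRNA and by 0.40 (adjusted p = 0.016) in footprints. ZBTB17 (MIZ1), through which MYC represses some genes, had 31.0 and 30.3 in mut, against 53.8 and 41.9 in wt (log2 fold change -0.62, adjusted p = 6.1e-06, edgeR). USF2, another E-box binder, fell by 0.26 in mRNA (adjusted p = 0.0046). Footprints of ZBTB17 (-0.21, adjusted p = 0.65) and USF2 (-0.06, adjusted p = 0.90, edgeR) were not called. MYCL, the remaining MYC paralogue, had a log2 fold change of -0.23 in mRNA that was not called (adjusted p = 0.19).

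Of 15 chromatin cofactors of MYC, 1 rose and 6 fell in mRNA (median -0.10), where 18.9% of all genes rose and 18.9% fell, and 1 rose and 4 fell in footprints (median -0.05), where 10.3% rose and 11% fell. HCFC1, a host cell factor that binds MYC, had 385.8 and 412.1 scaled CPM of mRNA in mut libraries, against 542.2 and 552.9 in wt libraries (log2 fold change -0.46, adjusted p = 6.6e-22, edgeR), and its footprints fell by 0.26 (adjusted p = 0.016). RUVBL2, an ATPase of chromatin remodellers, fell by 0.36 in mRNA (adjusted p = 6.9e-13) and by 0.47 in footprints (adjusted p = 1.2e-08). ACTL6A, an actin-related subunit of the same complexes, rose by 0.40 in mRNA (adjusted p = 8.3e-05) and by 0.34 in footprints (adjusted p = 0.032). CDK9, the kinase that releases paused polymerase, fell by 0.36 in mRNA, and KAT5, an acetyltransferase, fell by 0.50 in footprints (adjusted p = 0.014). CDK9 footprints (-0.30, adjusted p = 0.075) and KAT5 mRNA (-0.05, adjusted p = 0.73, edgeR) were not called.

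Of 19 genes that set the stability of MYC protein, 7 rose and 4 fell in mRNA (median -0.01; all genes 18.9% each way), and of 18 tested in footprints 0 rose and 5 fell (median -0.01; all genes 10.3% and 11%). STUB1, a ubiquitin ligase, fell by 0.43 in mRNA (adjusted p = 9.7e-10) and by 0.72 in footprints (adjusted p = 5.3e-06, edgeR). CIP2A, an inhibitor of the phosphatase PP2A, rose by 0.44 in mRNA (adjusted p = 3.4e-04), with footprints not called (0.32, adjusted p = 0.13, edgeR). SET, another PP2A inhibitor, rose by 0.29 in mRNA (adjusted p = 3.1e-09) and fell by 0.38 in footprints (adjusted p = 0.018). AURKB, a mitotic kinase, fell by 0.20 in mRNA (adjusted p = 0.032) and by 0.37 in footprints (adjusted p = 0.014, edgeR). No protein was measured.

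Of 15 corepressor genes of the MXD and MNT proteins, 5 rose and 2 fell in mRNA (median 0.07; all genes 18.9% each way), and of 14 tested in footprints 1 rose and 0 fell (median -0.01; all genes 10.3% and 11%). HDAC2, a histone deacetylase of the SIN3 complex, had 169.8 and 141.8 scaled CPM of mRNA in mut libraries, against 113.8 and 119.5 in wt libraries (log2 fold change 0.42, adjusted p = 2.9e-08), and its footprints rose by 0.50 (adjusted p = 4.3e-05, edgeR). ING1 fell by 0.57 and BRMS1 by 0.43 in mRNA. Footprints of ING1 (-0.0042, adjusted p = 0.995) and BRMS1 (-0.49, adjusted p = 0.13, edgeR) were not called. Of 13 partners of MGA in its Polycomb complex, 3 rose and 0 fell in mRNA (median 0.04), a share near or below the 37.7% of all genes called, and 4 rose and 1 fell in footprints (median -0.05; 21.2% of all genes called). HDAC2 belongs to this list too. CBX3, a heterochromatin protein, rose by 0.32 in mRNA (adjusted p = 1.2e-05) and by 0.69 in footprints (adjusted p = 3.7e-04). RNF2, the ubiquitin ligase of the complex, rose by 0.42 in mRNA (adjusted p = 0.0038), while the related ligase RING1 fell by 0.81 in footprints (adjusted p = 8.4e-04). RNF2 footprints (0.18, adjusted p = 0.63) and RING1 mRNA (-0.17, adjusted p = 0.15, edgeR) were not called.

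**Figure D4:**
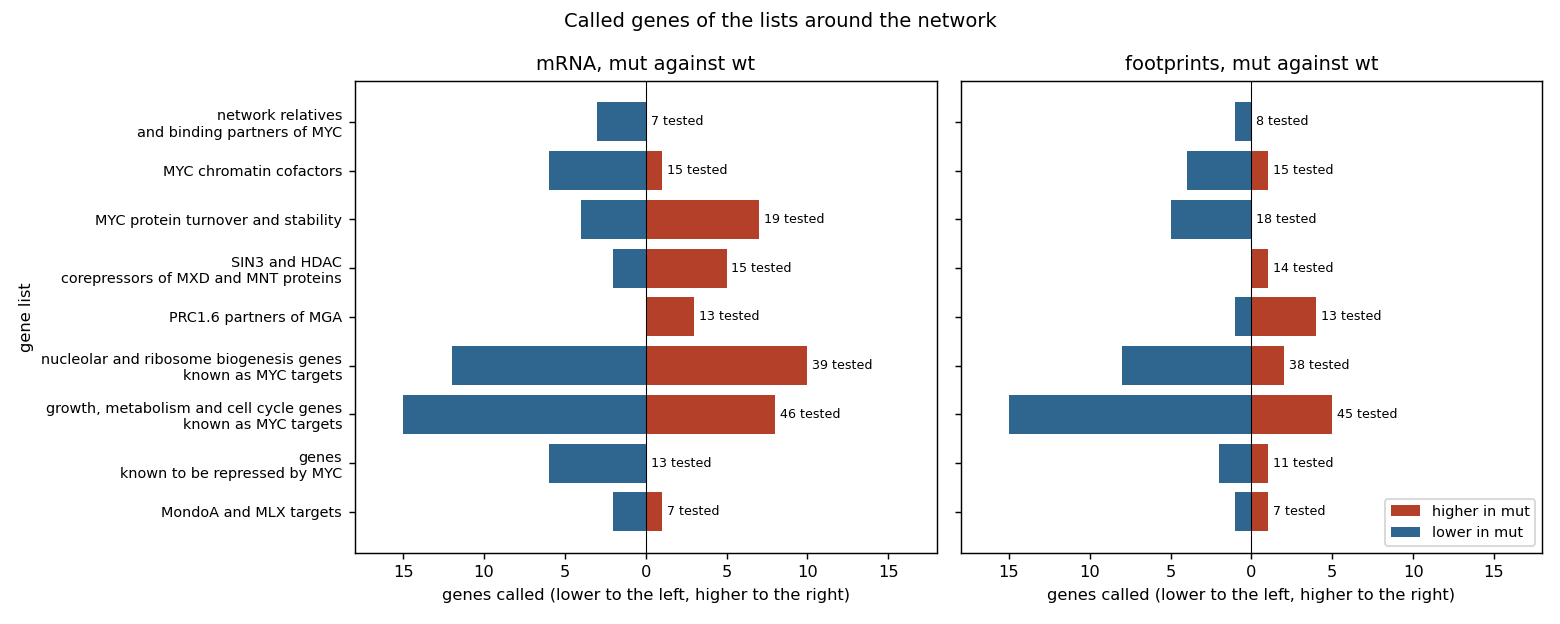
Number of genes of each list called at an adjusted p under 0.05, higher in mut to the right (red) and lower in mut to the left (blue), in mRNA and in footprints, with the number tested beside each bar. The growth targets have 8 called higher and 15 lower of 46 in mRNA, and the genes known to be repressed by MYC have none called higher and 6 lower of 13.

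Known targets were called in both directions, as were all genes. Of 39 nucleolar and ribosome biogenesis targets of MYC, 10 rose and 12 fell in mRNA (median -0.06; all genes 18.9% each way), and of 38 tested in footprints 2 rose and 8 fell (median -0.16; all genes 10.3% and 11%). BOP1, which acts in maturation of the large ribosomal subunit, fell by 0.51 in mRNA (adjusted p = 1.4e-18) and by 0.48 in footprints (adjusted p = 1.9e-05, edgeR). MYBBP1A fell by 0.49 in mRNA (adjusted p = 3.3e-09) and by 0.49 in footprints (adjusted p = 0.0081). PES1, a partner of BOP1, fell by 0.25 in mRNA (adjusted p = 0.0099) and by 0.59 in footprints (adjusted p = 3.7e-04, edgeR). NCL, the nucleolar protein nucleolin, rose by 0.28 in mRNA (adjusted p = 3.5e-07), with footprints not called (-0.03, adjusted p = 0.87, edgeR).

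Of 46 growth, metabolism and cell cycle targets, 8 rose and 15 fell in mRNA (median -0.04), where 18.9% of all genes rose and 18.9% fell, and of 45 tested in footprints 5 rose and 15 fell (median -0.11), where 10.3% rose and 11% fell. PKM, a glycolytic enzyme, fell by 0.50 in mRNA (adjusted p = 8.5e-23) and by 0.41 in footprints. The glucose carrier SLC2A1 fell by 0.38 and the glutamine carrier SLC1A5 by 0.32 in mRNA. In footprints SLC2A1 fell by 0.22 (adjusted p = 0.0057) and SLC1A5 was not called (-0.10, adjusted p = 0.079, edgeR). MTHFD2, an enzyme of mitochondrial folate metabolism, rose by 0.18 in mRNA (adjusted p = 0.0011) and fell by 0.34 in footprints (adjusted p = 1.2e-08, edgeR). SLC16A1, a lactate carrier, rose by 0.32 in footprints (adjusted p = 1.5e-07), with mRNA not called (0.11, adjusted p = 0.082, edgeR).

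Of genes known to be repressed by MYC, 13 were tested in mRNA, where 0 rose and 6 fell (median -0.26; all genes 18.9% each way), and 11 in footprints, where 1 rose and 2 fell (median -0.29), near the 21.2% of all genes called. NDRG2, a differentiation gene, fell by 0.80 in mRNA (adjusted p = 5e-13) and by 0.67 in footprints (adjusted p = 2.6e-04, edgeR). CEBPB, a myeloid transcription factor, fell by 0.53 in mRNA (adjusted p = 3.5e-12), and the cell cycle inhibitor CDKN1C fell by 0.44 in mRNA. Footprints of CEBPB (-0.08, adjusted p = 0.70) and CDKN1C (-0.29, adjusted p = 0.23, edgeR) were not called. Of 7 targets of the MondoA and MLX pair, 1 rose and 2 fell in mRNA (median -0.11), near the 37.7% of all genes called, and 1 rose and 1 fell in footprints (median -0.08; 21.2% called). The network member MXD4 is in this list too, as 1 of the 2 mRNA falls and as the footprint fall. TXNIP, the classic glucose-induced target of the pair, rose by 0.16 in mRNA (adjusted p = 0.0012) and by 0.19 in footprints (adjusted p = 0.031). ARRDC2 fell by 0.46 in mRNA (adjusted p = 2.4e-04), with footprints not called (-0.23, adjusted p = 0.44, edgeR). These list medians stand beside -0.0022 in mRNA and 0.0055 in footprints over all genes.

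**Figure D5:**
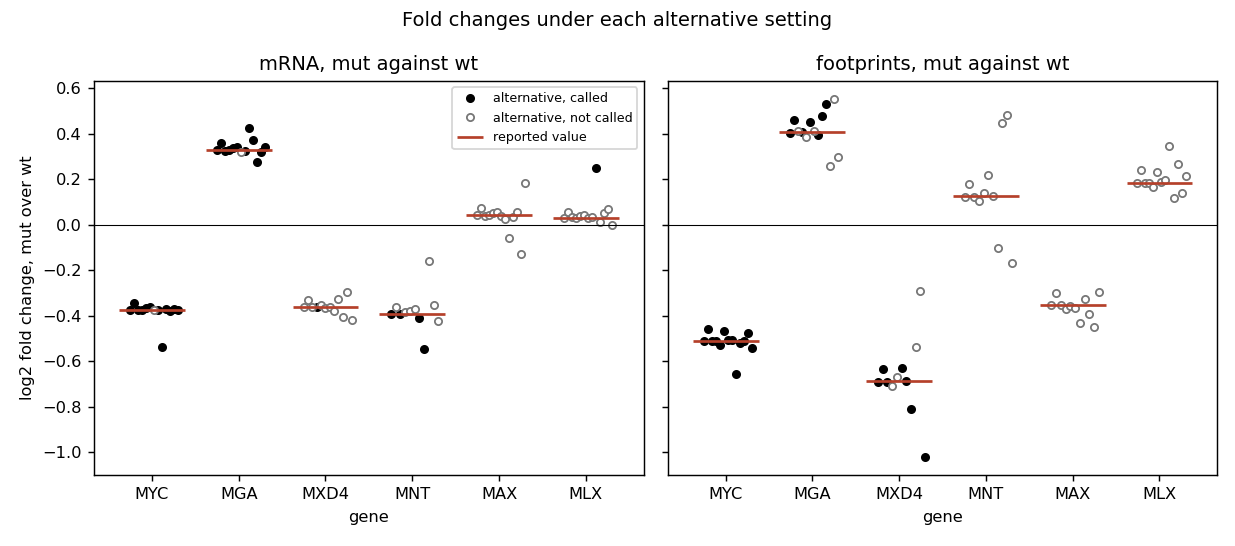
Log2 fold change of mut over wt of MYC, MGA, MXD4, MNT, MAX and MLX under each alternative setting, mRNA and footprints side by side; each point is 1 alternative, filled where the adjusted p was under 0.05, and the red bar is the reported value. In these alternatives MYC lay at -0.54 to -0.35 in mRNA and MGA at 0.27 to 0.42, while MAX mRNA and MNT footprints lay on both sides of 0.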

How the data were processed

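Per the labels' protocols, mRNA was copied to cDNA with oligo(dT), and footprints were made with RNase I, size-selected on a gel and depleted of ribosomal RNA. Each deposited file holds raw whole-number counts per Ensembl gene for 1 library. Per the submitters' processing notes, featureCounts, STAR, Bowtie2, Trimmomatic and cutadapt were used, with build GRCh38 (hg38) and no versions stated. For annotation release, strand setting, counted feature and multiply matching reads, the choices made are not given in the sources used. The amino acid change of the mutant and 1 gene of the lists are not reported here. Of 20453 gene IDs, 20407 matched a symbol and 46 did not. No gene or protein lengths were used, so levels were not compared between genes.

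Groups and replicate numbers came from the sample labels, and no label ties the replicates to separate cultures. The p-values therefore reflect only how much these libraries differed from each other, which may be technical spread. Quasi-likelihood tests were run in edgeR 4.0.16 (R 4.3.3; glmQLFTest after glmQLFit, legacy FALSE), with TMM factors within each assay and filterByExpr by genotype. For footprints per mRNA, the genotype by assay interaction was tested in 1 model of 8 libraries over genes kept in both assays, and footprints against mRNA as the assay contrast within a genotype. Benjamini-Hochberg adjustment ran over all genes of a comparison, and a gene was called at an adjusted p under 0.05. Scaled CPM divide a count by the total over tested genes times the TMM factor of the assay. Standard errors come from the F statistic, and 95% intervals are the estimate with 1.96 standard errors on each side. Floors of 3 counts cover counting error only, and no source names molecular identifiers, so reads may repeat molecules. The procedure was tested on simulated counts, with larger changes than the members showed and in well-counted genes only. How it does at the members' fold changes and low footprint counts was not tested.

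All 10 members and DNMT3A were named, with up to 4 genes of smallest p per list and comparison and the 3 genes most like MYC. The members and the 9 lists were chosen with earlier results of these data known. Alternatives were other scalings, DESeq2 1.42.0, other filters, an assumed coefficient of variation of 10%, removal of a trend with gene density, the replicate block and each library left out. Total counts with no scaling factors, and TMM over all 8 libraries for the assay contrasts, were added after seeing the data.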

Additional observations from a re-analysis of the deposited data

Results flagged for a closer look

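None of the network members differed between the assays in its genotype effect by the interaction test, but 10 of the 163 list genes tested did, 6.13% beside 4.11% of all genes (edgeR, interaction of genotype and assay, adjusted over all genes tested). Each value below is the log2 difference of the footprint effect from the mRNA effect, mut over wt. For MTHFD2 it was -0.52 (SE 0.066, adjusted p = 2.1e-08), with mRNA higher (0.18) and footprints lower (-0.34) in mut. SET, the PP2A inhibitor, showed -0.67 (adjusted p = 3.1e-04), and WDR43, a nucleolar processing factor, -0.65 (adjusted p = 2.9e-04), each with mRNA called higher and footprints called lower. These 3 kept their interaction calls in every alternative except an assumed coefficient of variation of 10%.

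The other 7 were called with adjusted p between 0.024 and 0.048 and lost the call when 1 or more single libraries were left out. BTG2, an antiproliferative gene, was at 0.82, with mRNA called lower and footprints called higher. CDKN1B, the cell cycle inhibitor p27, was at -0.91, and RRN3, a factor of RNA polymerase I, at -0.87. PPRC1, a coactivator, was at 0.58 and PHB1, prohibitin, at -0.32. FBL, the nucleolar methyltransferase fibrillarin, and SLC1A5 were each at 0.21.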

How the results depend on the processing

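Over all 5 comparisons the members had 578 alternative values, of which 503 kept direction and side of the threshold, 40 lost the call, 9 gained it and 26 changed sign. The numbers of genes called moved most. In mRNA 4060 genes were called, 1461 with DESeq2, 313 at an assumed coefficient of variation of 10%, and 2281 to 3839 with 1 library left out. In footprints 1950 were called, 384 with DESeq2, 1277 at a mean count of at least 100, 288 at the 10% variation, and 273 to 1807 with 1 library left out (273 without mut footprint replicate 1). In footprints per mRNA 377 were called, 131 with DESeq2, 13 at the 10% variation, and 140 to 445 with 1 library left out. Of footprints against mRNA, 5490 were called in mut and 6421 in wt, against 2349 (mut) and 2519 (wt) at a mean count of at least 100, 3990 to 5341 (mut) and 5531 to 6119 (wt) with 1 library left out. DESeq2 gave no adjusted p for 3 members in mRNA and 6 in footprints. Counts of called genes in the lists stayed within 1.5 times in 557 of 774 alternative values and moved further in 217.

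Signs turned for weak members. MAX mRNA was -0.0573 with the density trend removed. MYC footprints against mRNA in wt were -0.0259 at a mean count of at least 100, where the median of all genes was 0.189. The 0 of this ratio follows the total counts of the genes kept, so under that filter it was not the typical gene. The cause of the sign change was not tested. With 1 library left out, mRNA lay between -0.131 and 0.185 for MAX, -0.0977 and 0.297 for MXD3, and -0.00258 and 0.0666 for MLX. Footprints lay between -0.42 and 0.361 for MXI1 and -0.167 and 0.482 for MNT. Footprints per mRNA lay between -0.238 and 0.187 for MXD1, -0.664 and 0.0628 for MXD4, -0.197 and 0.584 for MXI1, and -0.0748 and 0.219 for MGA. Footprints against mRNA in wt lay between -0.292 and 0.108 for MXD3 and -0.364 and 0.00996 for MXI1. In mut they lay between -0.41 and 0.0172 for MXD1, -0.182 and 0.543 for MXD4, -0.409 and 0.37 for MXI1, and -0.206 and 0.441 for MNT.

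Replicate numbers are shared between groups, but no label says that a number marks a shared culture, and the deviations of same-numbered libraries correlated at 0.102 between the mRNA groups and 0.141 between the footprint groups (3068 genes). Across assays they correlated at 0.209 (mut mRNA with wt footprints), 0.128 (mut with mut), 0.0845 (wt with wt) and 0.0294 (mut footprints with wt mRNA). A replicate block gave 4168, 2074 and 510 calls in the genotype comparisons and 5532 (mut) and 6491 (wt) in the assay contrasts. Under the block the mRNA calls of MXD4 (adjusted p = 0.0528) and MNT (adjusted p = 0.0512) were lost. Footprint depth limits MXD1, MXD3, MXD4 and MNT, with 7 to 19 mut counts per library. It also limits MAX, with 28 and 16 mut counts, and MXI1, with 21 and 23.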
